A study of Mus musculus with 3 samples.

Results

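Sox9, Sox5, Sox6 and Wwp2 are 4 genes of the cartilage programme, chosen by name from the 31053 genes in the deposited count tables, and all 4 were measured. They were followed in mesenchymal cells, taken as cells with at least 1% of their UMIs from Col1a1, Col1a2 and Col3a1, and by whether a cell also showed Col2a1, Acan, Inhba or Pi16. A UMI is a molecular tag, so that each count stands for 1 captured RNA molecule. The cells came from ectopic tissue masses of CD1 mice, 5 days after implantation. Each group was 1 library. The antibody group had Matrigel with recombinant human BMP2 and systemic antibody that neutralizes activin A. The IgG group had the same BMP2 implant and pre-immune control IgG. The Matrigel group had Matrigel, a gel of basement membrane proteins, with no BMP2, and the labels name no IgG for it. BMP2 and IgG therefore cannot be told apart between the IgG and Matrigel groups. The labels do not say how many animals went into a library. With 1 library a group there is no replicate check and no test. Intervals below are 95% intervals for counting error only, and the spread between animals is unknown.

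Sox9 encodes the transcription factor that commits mesenchymal cells to cartilage, and in mice cartilage does not form without it. Sox5 and Sox6 encode closely related partners that lack an activation domain of their own and act with Sox9 on Col2a1 and Acan, the genes of the main collagen and the main proteoglycan of cartilage. Wwp2 encodes a HECT-type ubiquitin ligase whose transcript hosts miR-140, a microRNA abundant in cartilage, and in mice Sox9 is known to act on this locus. Inhba encodes the subunit of activin A, and Pi16 marks fibroblast progenitors.

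The 3 Sox genes share the HMG box, the DNA-binding domain that defines the family, and its coding sequence is shown to set Sox9 beside the closer pair. Over 75 aligned bases Sox5 and Sox6 were identical at 64 (85.3%). Sox9 matched Sox5 at 49 (65.3%) and Sox6 at 46 (61.3%). Capitals mark the 43 bases that all 3 share, and the stretches lie at bases 680 to 754 of Sox9-201, 1784 to 1858 of Sox5-201 and 2033 to 2107 of Sox6-201 in GENCODE M21.
Sox9: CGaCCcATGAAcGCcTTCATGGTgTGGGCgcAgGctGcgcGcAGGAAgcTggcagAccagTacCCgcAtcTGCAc
Sox5: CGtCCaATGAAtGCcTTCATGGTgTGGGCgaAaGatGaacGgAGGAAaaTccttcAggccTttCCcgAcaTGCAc
Sox6: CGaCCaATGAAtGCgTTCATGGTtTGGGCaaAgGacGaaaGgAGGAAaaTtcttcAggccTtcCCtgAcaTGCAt

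In GRCm38, the assembly named mm10 by the submitters, Sox9 lies on chromosome 11 at 112782224 to 112787760 on the plus strand. Sox5 lies on chromosome 6 at 143828425 to 144781977 and Sox6 on chromosome 7 at 115470872 to 116038796, both on the minus strand. Wwp2 lies on chromosome 8 at 107436365 to 107558595 on the plus strand. Few UMIs were assigned to annotated genes that overlap these loci. Sox6os, antisense to Sox6, had 1 UMI in antibody, 15 in IgG and 0 in Matrigel mesenchymal cells, against 107, 955 and 4 UMIs of Sox6. Mir140 lies in intron 16 of the 24-exon transcript Wwp2-201 (107550136 to 107552276) and had no row in the tables, so that no level of it is given. The mature miR-140-3p at chr8:107551288-107551308, plus strand, is shown because it is read from the same host gene, with its seed (bases 2 to 8) in capitals, from RefSeq (GRCm38.p6).
miR-140-3p: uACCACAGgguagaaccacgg

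Promoter windows of 300 bases from RefSeq (GRCm38.p6) were searched for ACAAT and ACAAAG, core sequences bound by Sox proteins, on both strands. At least 1 of them occurs in 42.9% of 32851 promoter windows, ACAAT in 31.0% and ACAAAG in 18.7%, so that a match is common. Sox5, Sox6 and Wwp2 matched the promoter table, with 1, 6 and 1 windows. The windows are shown because the levels of these genes were higher in IgG cells with Col2a1 than in the other IgG cells. Matches are in capitals. The Sox5 window is chr6:143947057-143947356 (minus strand, inside the gene) and holds 1 ACAAT. The first Sox6 window is chr7:116038695-116038994 (minus strand) and holds 1 ACAAAG. The other Sox6 windows are not shown. Of them, windows 2 and 4 hold 1 ACAAAG each, and window 6 holds 3 ACAAT. Windows 3 and 5 hold 2 ACAAT and 2 ACAAAG each. The Wwp2 window is chr8:107436120-107436419 (plus strand) and holds 0 of either.
Sox5 promoter: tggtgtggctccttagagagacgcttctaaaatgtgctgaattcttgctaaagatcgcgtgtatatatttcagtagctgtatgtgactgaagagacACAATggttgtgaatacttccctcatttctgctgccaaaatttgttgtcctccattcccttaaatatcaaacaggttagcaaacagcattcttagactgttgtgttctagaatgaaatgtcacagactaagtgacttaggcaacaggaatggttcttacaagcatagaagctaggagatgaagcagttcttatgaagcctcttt
Sox6 promoter: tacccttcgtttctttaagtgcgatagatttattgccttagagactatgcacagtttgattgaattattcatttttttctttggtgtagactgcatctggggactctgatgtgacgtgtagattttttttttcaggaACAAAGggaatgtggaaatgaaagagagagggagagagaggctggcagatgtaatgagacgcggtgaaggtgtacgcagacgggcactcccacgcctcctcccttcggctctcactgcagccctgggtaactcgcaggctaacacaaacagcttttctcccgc
Wwp2 promoter: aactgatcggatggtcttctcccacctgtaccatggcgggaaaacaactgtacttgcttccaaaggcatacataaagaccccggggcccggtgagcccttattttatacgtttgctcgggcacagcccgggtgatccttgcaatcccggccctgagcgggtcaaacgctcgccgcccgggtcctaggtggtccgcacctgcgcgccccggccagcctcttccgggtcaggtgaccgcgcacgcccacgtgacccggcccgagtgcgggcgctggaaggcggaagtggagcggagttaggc

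The antibody library held 5682 cells after filtering, the IgG library 5674 and the Matrigel library 8542. Of these, 592 (10.4%), 1478 (26.1%) and 1982 (23.2%) cells were mesenchymal, in the same order of libraries. Their median depths were 19186 UMIs a cell in antibody, 17191 in IgG and 8752 in Matrigel, and the Matrigel cells were the shallowest. Levels are given as CPM, the usual depth-scaled unit, a gene's UMIs scaled to the UMIs summed over the cells named, and shares of cells with a UMI after drawing 1000 UMIs from each cell. All 12 markers of mesenchymal cells were at or above 1 CPM in each library. The 11 macrophage markers summed to 178 CPM in antibody, 213 CPM in IgG and 298 CPM in Matrigel mesenchymal cells, against 22636 to 25615 CPM in macrophages. The number of cells near the collagen threshold was small, with 12 antibody, 30 IgG and 12 Matrigel cells just inside it and 12, 28 and 9 cells just outside it. Libraries shared 7 to 19 cell barcodes.

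Each of the 4 genes was highest in the IgG library, intermediate in the antibody library and lowest in the Matrigel library. Sox9 stood at 136 CPM in antibody mesenchymal cells (1732 UMIs), 439.7 CPM in IgG (11847 UMIs) and 54.5 CPM in Matrigel (1026 UMIs). Wwp2 stood at 198 CPM in antibody (2528 UMIs), 519.6 CPM in IgG (14001 UMIs) and 24.9 CPM in Matrigel (469 UMIs), the gene with more UMIs than Sox9 in both BMP2 libraries and fewer in Matrigel. Sox5 had 26.3 CPM in antibody (335 UMIs), 41.8 CPM in IgG (1125 UMIs) and 12.0 CPM in Matrigel (225 UMIs). Sox6 had 8.39 CPM in antibody (107 UMIs) and 35.4 CPM in IgG (955 UMIs), against 0.212 CPM in Matrigel from 4 UMIs in 1982 cells. The intervals of none of the 4 genes overlapped between libraries. These intervals cover counting error only and are narrow for a gene with many UMIs. Nedd4, for example, had an IgG over Matrigel ratio of only 1.12, with an interval of 1.099 to 1.14. The share of all genes with intervals apart was not counted.

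**Figure D1:**
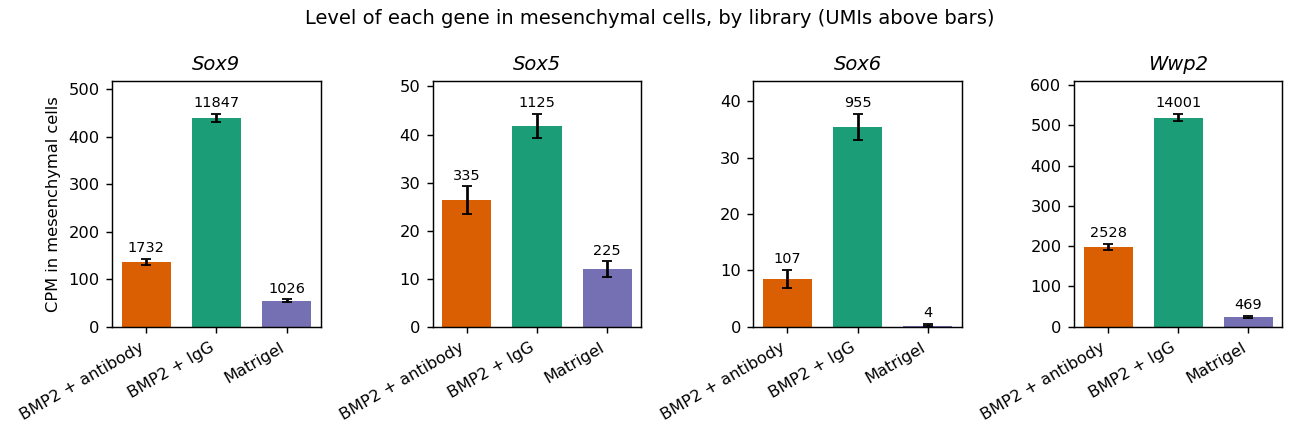
Level of each gene in CPM (vertical axis, starting at 0) of the mesenchymal cells of each library, with exact Poisson 95% intervals and the UMIs above the bars. In each panel the IgG bar is the tallest and the Matrigel bar the lowest, at 439.7 and 54.5 CPM for Sox9.

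The shares of cells followed the same order. Sox9 was found in 10.4% of antibody (interval 8.02 to 13.2%), 31.4% of IgG (29.0 to 33.9%) and 4.55% of Matrigel cells (3.66 to 5.58%) at 1000 UMIs. Wwp2 was found in 12.8% (10.2 to 15.8%), 34.4% (32.0 to 37.0%) and 1.78% (1.24 to 2.48%) of these cells. Sox5 was found in 1.73% (0.833 to 3.16%), 4.30% (3.31 to 5.47%) and 1.52% (1.02 to 2.17%) of them, and the antibody and Matrigel intervals overlapped. Sox6 was found in 1.21% of antibody and 3.396% of IgG cells, and in 0 of 1912 Matrigel cells, which allows a share of up to 0.157% (3 counts of the total, the limit used for every count of 0 cells). At full depth the shares were 50.5%, 78.9% and 23.6% for Sox9, 54.7%, 80.9% and 17.6% for Wwp2, 30.6%, 39.7% and 9.54% for Sox5 and 7.60%, 24.9% and 0.151% for Sox6, with the libraries in the same order. In antibody 10 cells held 48.6% of the Sox6 UMIs, against 10.5% in IgG. Antibody had fewer Sox6 UMIs (107 against 955) and fewer cells with them. These values therefore do not show whether the signal was more concentrated in antibody.

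Relative to Matrigel, the IgG library had 8.07 times the level of Sox9 (interval 7.57 to 8.61) and 20.9 times that of Wwp2 (19.03 to 22.9). Sox5 was at 3.495 times (3.03 to 4.05) and Sox6 at 167 times (65.0 to 614), a wide interval that rests on the 4 Matrigel UMIs. All 4 genes were thus past a ratio of 1.5, as were 16.6% of 14339 genes with at least 10 UMIs in either library, while 21.1% were lower by that much. The antibody library had 0.309 of the IgG level of Sox9 (0.294 to 0.325), 0.382 of that of Wwp2 (0.366 to 0.398), 0.629 of that of Sox5 (0.555 to 0.712) and 0.237 of that of Sox6 (0.192 to 0.289). All 4 were lower by 1.5-fold or more, as were 12.7% of 14009 genes, while 9.9% were higher. Of the 4, Sox5 had the ratio nearest 1 in both comparisons. Sox5 in antibody over IgG came short of 1.5-fold with a collagen threshold of 2% (-0.52 on the log2 scale) and without the cells with a Col2a1 UMI (-0.27), against -0.67 over all mesenchymal cells. Leaving out those cells brought Sox6 to -1.31, against -2.08, while leaving out the 10 cells with most Sox6 UMIs brought it to -2.87. In IgG over Matrigel, cells without Col2a1 gave 5.79 for Sox6, against 7.38, and 3.72 for Wwp2, against 4.38, and a mean of per-cell CPM gave 8.93 for Sox6.

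The antibody library stayed above Matrigel at 2.49 times for Sox9 (2.31 to 2.70), 2.20 times for Sox5 (1.85 to 2.62), 39.5 times for Sox6 (14.99 to 148) and 7.96 times for Wwp2 (7.21 to 8.81). All 4 were past a ratio of 1.5, as were 11.6% of 13772 genes, while 22.1% were lower. The median gene lay at -0.15 on the log2 scale in this comparison. These comparisons share libraries, so each is given as its own value and they do not support one another. In the mixed cells of a mass, a change of a gene in the summed mesenchymal UMIs cannot be told apart from a change in which mesenchymal cells were present, and the following splits by marker describe this.

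Other genes of the Sox and NEDD4 families were mixed. Of 20 listed Sox genes, which include Sox9, Sox5 and Sox6, 10 reached 10 UMIs in IgG or Matrigel cells; 6 were higher in IgG and 1 lower, with a list median of 0.95 against -0.03 over all genes (log2, 1 UMI added to each side). Of the 7 other than Sox9, Sox5 and Sox6, 3 were higher (Sox18, Sox12 and Sox7) and 1 lower, with a median of 0.37, against 16.6% higher and 21.1% lower of all genes. Sox18 stood at 6.04 CPM in antibody, 11.1 CPM in IgG and 1.70 CPM in Matrigel, in the same order as the 4 genes. Sox12 stood at 12.0 CPM in antibody, 18.6 CPM in IgG and 10.5 CPM in Matrigel, while Sox7 had 2, 14 and 4 UMIs. The lowest ratios of the list were those of Sox8, at 0.854 CPM in IgG and 1.06 CPM in Matrigel, and Sox13, at 2.00 CPM in IgG and 8.34 CPM in Matrigel. Between antibody and IgG 0 of 10 were higher and 6 lower, with a median of -0.64 against -0.07. The same 3 of the 7 others were among those lower, with a median of -0.15 over the 7, against 12.7% lower and 9.9% higher of all genes. Sox4, the Sox gene with the most UMIs after Sox9 in IgG cells, stood at 125 CPM in antibody, 136 CPM in IgG and 164 CPM in Matrigel. Of 8 measured NEDD4-family ligases, 1 was higher in IgG than Matrigel (Wwp2) and 4 lower, and the median was -0.58. Nedd4 stood at 822 CPM in antibody, 1104 CPM in IgG and 986 CPM in Matrigel. Wwp1, the closest relative of Wwp2, stood at 28.8 CPM in antibody, 27.0 CPM in IgG and 56.1 CPM in Matrigel. Between antibody and IgG 2 of the 8 were higher (Hecw2 and Smurf1) and 1 lower (Wwp2), with a median of -0.03. Between antibody and Matrigel 4 of 9 Sox genes were higher and 1 lower (median 0.21). Of the 6 other than Sox9, Sox5 and Sox6, 1 was higher and 1 lower (median -0.02). Of 8 NEDD4-family ligases 1 was higher (Wwp2) and 3 lower (median -0.25), and the 7 others had a median of -0.26. Of all genes 11.6% were higher and 22.1% lower in this comparison, with a median of -0.15.

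Lists of cartilage genes, which hold Col2a1 and Acan, were described in the same way, and their counts are read against the shares of all genes: 16.6% higher and 21.1% lower in IgG than Matrigel, 9.9% and 12.7% in antibody than IgG, and 11.6% and 22.1% in antibody than Matrigel. Of 21 measured cartilage matrix genes, 20 were higher and 1 (Epyc, with 10 and 13 UMIs, an interval that includes 1) lower in IgG than Matrigel, with a median of 5.68, or 5.77 with genes at 0 in a library set to the 3 counts that a count of 0 allows. Col2a1 stood at 277 CPM in antibody and 1436 CPM in IgG, against 1 UMI in Matrigel. Acan stood at 284 CPM in antibody and 1194 CPM in IgG, against 1 UMI in Matrigel. Between antibody and IgG, 20 of the 21 were lower and 1 (Epyc, with 9 and 10 UMIs) higher, again with an interval that includes 1, and the median was -2.33, or -2.31 with genes at 0 set to the same limit. Between antibody and Matrigel 13 of 18 were higher and 0 lower, with a median of 3.93 (3.99 at the limit). Of 13 measured regulators of cartilage formation, 7 were higher in IgG than Matrigel, Foxc1 and Dlx5 the most, and 3 lower, with a median of 0.62, where the share lower is near that of all genes. In antibody 6 of the 13 were lower than in IgG and 0 higher, with a median of -0.18. Of 10 measured genes of hypertrophy and bone, 10 were higher in IgG than Matrigel (median 3.07, or 3.14 at the limit), with Ibsp at 715 CPM in IgG and 0 UMIs in Matrigel. Between antibody and IgG 6 of the 10 were lower (median -0.84) and 1 higher, Spp1, at 981 CPM in antibody and 430 CPM in IgG. All 14 progenitor genes were lower in IgG than Matrigel (median -3.07), and 12 of 14 were higher in antibody than IgG (median 1.34). Between antibody and Matrigel 5 of 12 regulators were higher and 2 lower (median 0.33), 8 of 10 genes of hypertrophy and bone were higher (median 2.76, or 2.81 at the limit), and 14 of 14 progenitor genes were lower (median -1.51). Among the progenitor genes, Dpp4 had 72.2 CPM in antibody, 11.7 CPM in IgG and 211 CPM in Matrigel.

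Cells with Col2a1 were richer in all 4 genes. A Col2a1 UMI was found, at 1000 UMIs, in 25 of 578 antibody cells and 275 of 1443 IgG cells, and in 0 of 1912 Matrigel cells, which allows a share of up to 0.157%. In IgG, Col2a1-detected cells had 864 CPM of Sox9 against 341 CPM in the other cells, a ratio of 2.54 (2.44 to 2.63). Wwp2 stood at 1105 CPM in Col2a1-detected and 383 CPM in other IgG cells, a ratio of 2.89 (2.79 to 2.99). Sox5 stood at 84.8 and 31.7 CPM in these cells, a ratio of 2.68 (2.37 to 3.03), and Sox6 at 117.5 and 16.2 CPM, a ratio of 7.24 (6.33 to 8.27). All 4 were past 1.5, as were 8.4% of 13613 genes, while 20.4% were lower. The split reads the marker and the 4 genes from the same cells of 1 library, so it is a description.

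The antibody library gave the same order with fewer cells. Its 25 Col2a1-detected cells had 518.8 CPM of Sox9 against 115 CPM in the other 553 cells, a ratio of 4.51 (3.99 to 5.08). Wwp2 stood at 750.5 CPM in Col2a1-detected and 168 CPM in other cells, a ratio of 4.46 (4.04 to 4.93). Sox6 stood at 55.3 and 5.87 CPM, a ratio of 9.41 (6.12 to 14.2), from 36 and 71 UMIs. Sox5 stood at 43.0 and 25.4 CPM, a ratio of 1.69 (1.11 to 2.50), from 28 UMIs in the Col2a1-detected cells. The Sox5 shares of cells at 1000 UMIs ran the other way, at 0 of 25 Col2a1-detected cells, which allows a share of up to 12%, and 1.81% of the others. All 4 levels were past 1.5, as were 14.3% of 12755 genes, while 28.1% were lower. The Sox5 ratio turned to -2.49 on the log2 scale, against 0.76, once the 10 cells with most Sox5 UMIs were left out on each side, which leaves 15 Col2a1-detected cells, and it came short of 1.5-fold, at 0.44, as a mean of per-cell CPM. Leaving out the 10 cells with most UMIs of the gene brought Sox9 to 1.41, against 2.17, and Sox6 to 1.90, against 3.23, on the same scale.

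Acan gave a like split over more cells. It was detected in 72 of 578 antibody cells and 564 of 1443 IgG cells, against 1 of 1912 in Matrigel. In antibody cells Sox9 stood at 447 CPM with Acan and 89.7 CPM without it, and Sox6 at 52.3 and 1.89 CPM, a ratio of 27.6 (17.0 to 46.9). In IgG cells Sox9 stood at 735 CPM with Acan and 257 CPM without it, and Sox6 at 78.2 and 9.03 CPM, a ratio of 8.66 (7.27 to 10.4). Wwp2 stood at 768 and 113.5 CPM in antibody and 937 and 261 CPM in IgG cells, and Sox5 at 42.6 and 23.9 CPM in antibody and 65.5 and 27.1 CPM in IgG cells. At 1000 UMIs Sox5 was seen in 0 of 72 antibody cells with Acan, which allows a share of up to 4.17%, and in 1.98% of those without it. All 4 levels were past 1.5 in both libraries, as were 13.1% of 12631 genes in antibody and 8.47% of 13372 genes in IgG, while 21.4% and 15.7% were lower.

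Inhba-detected cells of the BMP2 libraries differed from the others by less than 1.5-fold in these genes, except for Sox6 in antibody. Both sides of this split hold cells with Col2a1 or Acan, and levels without those cells are given below. In 436 Inhba-detected and 1007 other IgG cells, Sox9 stood at 411 and 455 CPM, Wwp2 at 453 and 554 CPM, Sox5 at 35.4 and 45.01 CPM and Sox6 at 34.5 and 36.0 CPM. The ratios were 0.904 (0.870 to 0.940) for Sox9, 0.816 (0.787 to 0.847) for Wwp2, 0.787 (0.690 to 0.897) for Sox5 and 0.957 (0.833 to 1.096) for Sox6. None of the 4 was past 1.5 in either direction, like most of the 13360 genes, of which 4% were higher and 10.9% lower by that much. In antibody cells the ratios were 1.09 (0.984 to 1.20) for Sox9, 1.16 (0.925 to 1.46) for Sox5, 0.543 (0.330 to 0.865) for Sox6 and 0.766 (0.702 to 0.835) for Wwp2, so that Sox6 alone was past 1.5 and lower, as were 17.3% of 12367 genes, while 5.85% were higher. Inhba itself stood at 799.5 CPM in antibody, 688 CPM in IgG and 26.0 CPM in Matrigel mesenchymal cells. In Matrigel, 25 Inhba-detected cells had 109 CPM of Sox9 against 53.3 CPM in 1887 others, a ratio of 2.05 (1.49 to 2.75), from 46 UMIs. Wwp2 stood at 35.6 and 24.7 CPM in these cells, a ratio of 1.44 (0.798 to 2.40). Sox5 stood at 2.37 CPM, from 1 UMI, and 12.2 CPM, a ratio of 0.194 (0.0049 to 1.09), and Sox6 had 0 and 4 UMIs. Sox9 was past 1.5 and higher there, as were 17.1% of 13412 genes, and Sox5 was past it and lower, as were 29.3%, with an interval that includes 1.

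Pi16-detected cells had less Sox9 and Wwp2 than the other cells in each library. They were also shallower, at medians of 11091 and 23967 UMIs in Pi16-detected and other antibody cells, 11198 and 17620 in IgG and 7616 and 10029 in Matrigel. In antibody, Sox9 stood at 13.98 CPM in 134 Pi16-detected cells and 152 CPM in the others, and Wwp2 at 15.3 and 222 CPM. In IgG, Sox9 stood at 73.7 CPM in 80 Pi16-detected cells and 454 CPM in the others, and Wwp2 at 57.4 and 537 CPM. In Matrigel, Sox9 stood at 12.4 CPM in 705 Pi16-detected cells and 71.3 CPM in the others, and Wwp2 at 13.3 and 29.6 CPM. Both were lower by 1.5-fold or more in each library, as were 29.7%, 26.6% and 19.4% of all genes tested in antibody, IgG and Matrigel, while 19.6%, 20.4% and 11.9% were higher. Sox6 was at 0 of 107 UMIs in Pi16-detected antibody cells and at 8.19 CPM (8 UMIs) in those of IgG, against 36.5 CPM in other IgG cells. Sox5 differed less in IgG and Matrigel. It stood at 13.3 CPM in Pi16-detected and 11.5 CPM in other Matrigel cells, a ratio of 1.16 (0.864 to 1.55), and at 29.7 and 42.2 CPM in IgG, a ratio of 0.704 (0.469 to 1.02), where both intervals include 1. In antibody it stood at 7.32 and 28.8 CPM, a ratio of 0.254 (0.126 to 0.461).

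Cells were then put in 1 class each, by Col2a1 or Acan, else Inhba, else Pi16, else none of the 4. Cells with Col2a1 or Acan were 79 of 578 in antibody (13.7%), 600 of 1443 in IgG (41.6%) and 1 of 1912 in Matrigel. Within them, Sox9 stood at 436 CPM in antibody and 724 CPM in IgG, a ratio of 0.602 (0.558 to 0.647). Wwp2 stood at 731 and 928 CPM, a ratio of 0.788 (0.744 to 0.835), Sox5 at 40.9 and 63.7 CPM, a ratio of 0.641 (0.498 to 0.816), and Sox6 at 47.5 and 77.0 CPM, a ratio of 0.617 (0.488 to 0.771). Over all mesenchymal cells the ratios were 0.309 for Sox9, 0.382 for Wwp2 and 0.237 for Sox6, each farther from 1, and 0.629 for Sox5, about the same. The difference between these ratios was not tested.

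The libraries also differed in cells with none of the 4 markers at 1000 UMIs. Cells of this class can still hold marker UMIs at full depth. Acan was seen in 39.1% of IgG mesenchymal cells at 1000 UMIs and 55.5% at full depth, and Col2a1 in 19.1% and 36.5%. Matrigel mesenchymal cells had 1 UMI of each. In this class Sox9 stood at 109 CPM in 226 antibody cells, 304 CPM in 511 IgG cells and 70.9 CPM in 1183 Matrigel cells. Wwp2 stood at 148 CPM in antibody, 308 CPM in IgG and 29.4 CPM in Matrigel. Antibody was at 0.359 (0.328 to 0.392) of IgG for Sox9 and 0.479 (0.443 to 0.518) for Wwp2. IgG was at 4.29 times Matrigel (3.98 to 4.62) for Sox9, 10.5 times (9.43 to 11.7) for Wwp2, 2.71 times (2.22 to 3.32) for Sox5 and 35.8 times (13.5 to 134) for Sox6, the last from 102 and 4 UMIs. Sox5 in these cells was at 27.1 CPM in antibody and 31.8 CPM in IgG, a ratio of 0.851 (0.695 to 1.04), an interval that includes 1. In Inhba-class cells Sox9 stood at 81.2 CPM in antibody, 186 CPM in IgG and 109 CPM in Matrigel, and Sox5 at 25.7 CPM in antibody and 19.8 CPM in IgG, a ratio of 1.30 (0.982 to 1.71). The Sox9 level was thus lower in Inhba-class cells than in cells with none of the markers in both BMP2 libraries. It was higher in Matrigel, from 46 UMIs in 25 Inhba-class cells. The shares of Matrigel cells with Sox9 lay close together, at 8% (0.984 to 26.0%) and 6.68% at 1000 UMIs. At 3000 UMIs they were 16.7% and 17.2%. Wwp2 in the Inhba class stood at 92.0 CPM in antibody, 174 CPM in IgG and 35.6 CPM in Matrigel, the last from 15 UMIs. In IgG, Sox6 stood at 2.56 CPM in the Inhba class and 10.96 CPM in cells with none of the markers. In antibody it stood at 1.03 and 3.07 CPM.

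**Figure D2:**
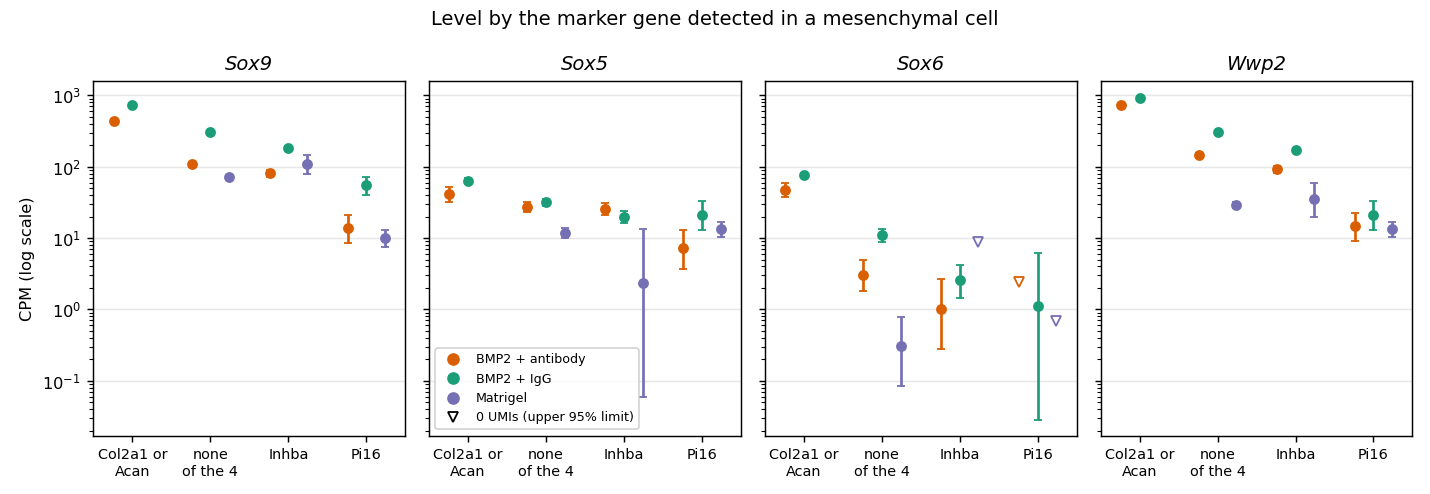
Level of each gene in CPM (log scale) in mesenchymal cells classed by the marker detected at 1000 UMIs, for each library, with exact Poisson 95% intervals; open triangles are upper limits where there were 0 UMIs, and classes under 20 cells are left out. Sox9 in IgG is at 724 CPM in the Col2a1 or Acan class and 55.2 CPM in the Pi16 class. Sox5 in IgG is at 19.8 CPM in the Inhba class and 21.4 CPM in the Pi16 class, with overlapping intervals. Sox5 in Matrigel is at 13.4 CPM in the Pi16 class and 11.7 CPM in cells with none of the markers, where the intervals also overlap.

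Most of the Sox6 UMIs lay in the cells with Col2a1 or Acan, 80.4% in antibody and 87.6% in IgG. For Wwp2 the shares were 52.4% in antibody and 72.1% in IgG, for Sox9 45.6% and 66.5%, and for Sox5 22.1% and 61.6%. Sox5 thus had the lowest share there in antibody, where 44.8% of its UMIs lay in cells with none of the markers and 29.9% in Inhba-class cells. In Matrigel 90.2% of Sox9, 81.7% of Wwp2 and 68.0% of Sox5 UMIs lay in cells with none of the markers. Mural-cell markers, 7 genes, summed to 128 CPM in antibody and 172 CPM in IgG cells with Col2a1 or Acan, against 52.5 and 57.9 CPM in cells with none of the markers; Myh11 was at 0 in the cells with Col2a1 or Acan of both libraries, and Rgs5 in those of antibody. Over all mesenchymal cells they summed to 78.4 CPM in antibody, 115 CPM in IgG and 64.3 CPM in Matrigel, in the same order as the 4 genes. The 6 Schwann-cell markers summed to 25.4 CPM in antibody and 45.2 CPM in IgG cells with Col2a1 or Acan, against 9.39 and 16.8 CPM in cells with none of the markers, with Sox10 at 0 in each. Sums of both lists in the Pi16 class, where Sox9 and Wwp2 were lowest, also lay above those in cells with none of the markers. Mural-cell markers in that class summed to 106.1 CPM in antibody, 129.6 CPM in IgG and 109.7 CPM in Matrigel. Schwann-cell markers summed to 24.01, 20.28 and 26.95 CPM. The part of mural or Schwann cells in the result was not tested. Macrophage markers summed to 229 and 218 CPM in cells with Col2a1 or Acan, against 219 and 204 CPM in cells with none of the markers.

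Within IgG the 4 genes went up with the amount of Col2a1 in the cell, in bins set after the data were seen. Sox9 stood at 300.3 CPM in 939 cells without a Col2a1 UMI, 344 CPM in 167 cells up to 100 CPM of Col2a1, 726 CPM in 134 cells of 100 to 1000 CPM, 808 CPM in 103 cells of 1000 to 5000 CPM and 938 CPM in 135 cells above 5000 CPM. Over the same bins Wwp2 stood at 329, 388, 842, 1122 and 1199 CPM, Sox5 at 28.3, 29.0, 59.5, 82.8 and 101.5 CPM and Sox6 at 11.8, 19.2, 52.0, 114 and 141 CPM. The bins below 100 CPM lay close together for Sox5. The next step, to the bin of 100 to 1000 CPM, was the largest in CPM for Sox9, Wwp2 and Sox5. For Sox6 the largest was the step to the bin of 1000 to 5000 CPM. Between the highest bin and the bin of 1000 to 5000 CPM the intervals were apart for Sox9, at 899.9 to 977.5 and 768 to 849 CPM, and overlapped for Sox6 (126 to 157 and 99.5 to 130.4 CPM), Sox5 and Wwp2. Depth per cell did not rise or fall steadily over the bins, at medians of 16565, 20521, 15766, 18063 and 17281 UMIs. It was not independent of them, since a shallow cell with a Col2a1 UMI cannot lie under 100 CPM.

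**Figure D3:**
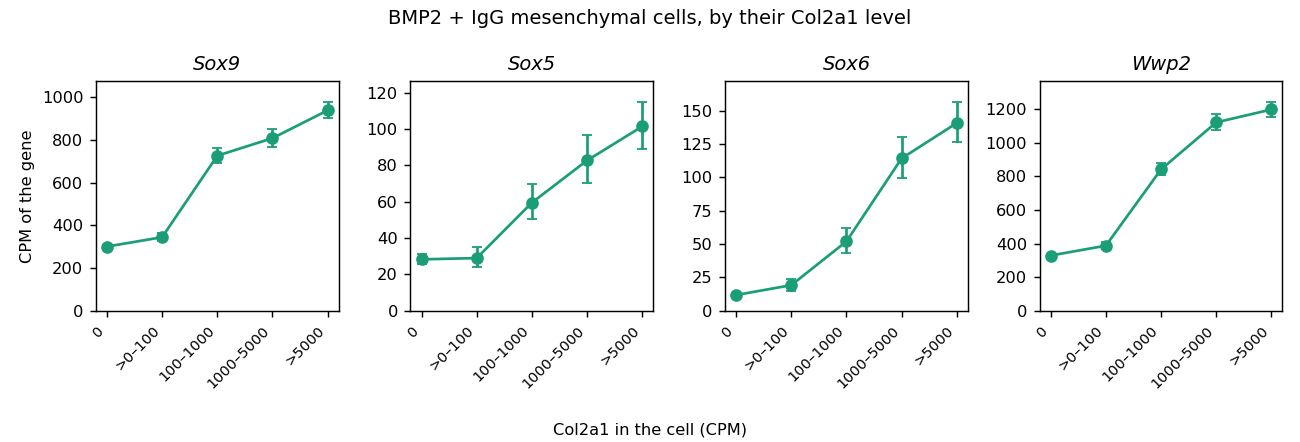
Level of each gene in CPM (vertical axis, starting at 0) in IgG mesenchymal cells, by the Col2a1 level of the cell in CPM from 0 on the left to above 5000 on the right, with exact Poisson 95% intervals. Each gene lies lowest in cells with no Col2a1 UMI, where for Sox5 the interval overlaps that of the next bin, at 300.3 CPM of Sox9 against 938 CPM above 5000.

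Few cells showed the 3 Sox genes together. After drawing 3000 UMIs from each cell, Sox9, Sox5 and Sox6 were all seen in 1 of 74 antibody cells with Col2a1 or Acan (1.35%) and in 21 of 585 such IgG cells (3.59%, interval 2.24 to 5.44%). Sox9 and Wwp2 were seen together in 48.7% of the antibody and 65.0% of the IgG cells of that class. Among IgG cells of that class Wwp2 was seen in 87.6% of cells with Sox9 and 73.5% of cells without it, and in cells with none of the markers in 59.1% and 34.8%. In Matrigel cells with none of the markers the 2 shares were 12.0% and 7.06%. All 4 genes were seen in 1 antibody and 20 IgG cells of the Col2a1 or Acan class. A low share of cells with all 3 Sox genes is not absence, since Sox5 and Sox6 were seen in only 15.2% and 17.4% of those IgG cells one at a time.

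**Figure D4:**
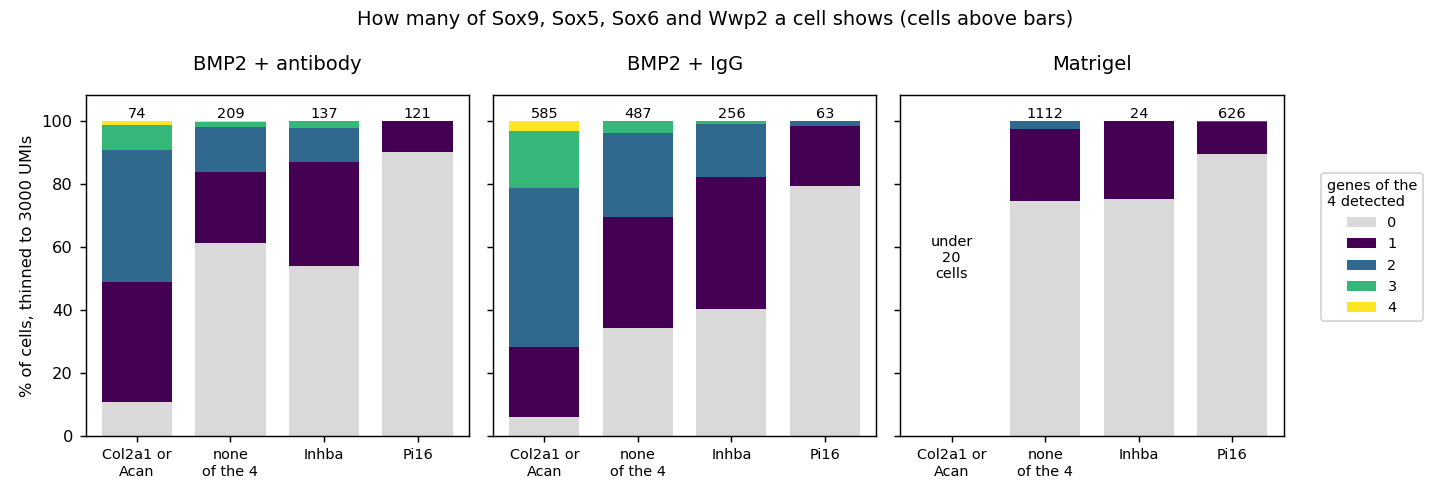
Share of cells (vertical axis, %) that show 0 to 4 of the genes after drawing 3000 UMIs from each cell, by library (panels) and marker class (bars), with the number of cells above. Cells with 2 or more of the genes are the most frequent in the Col2a1 or Acan class, where 20 of 585 IgG cells show all 4, and 0 of 626 Pi16-class Matrigel cells do.

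In the named immune classes Sox9, Sox5 and Sox6 were low and Wwp2 was not. Those cells of an unnamed cluster that lay under the collagen threshold held Sox9 at 269 CPM in antibody and 216.5 CPM in IgG. A fat-cell cluster held Sox6 at 29.3 CPM in Matrigel. In macrophages, which should lack Sox9, it stood at 0.620 CPM in antibody, 6.02 CPM in IgG and 0.978 CPM in Matrigel, and Col2a1 at 1.24, 17.5 and 0 CPM. Where the UMIs in macrophages came from was not tested. Sox9 was seen in 0.171% of antibody, 0.701% of IgG and 0.018% of Matrigel macrophages at 1000 UMIs, at median depths of 4324, 3155 and 2872 UMIs, against 10.4%, 31.4% and 4.55% of mesenchymal cells. Sox5 stood at 0.558, 1.29 and 0.669 CPM and Sox6 at 0.062, 0.401 and 0.0515 CPM in the macrophages. At 1000 UMIs Sox5 was seen in 0.0341%, 0.134% and 0.108% and Sox6 in 0%, 0.0334% and 0.018% of macrophages, and Wwp2 in 5.32%, 6.87% and 6.17%. The Wwp2 share of Matrigel mesenchymal cells, 1.78%, lay below that of macrophages of the same library. The 4 Sox6 UMIs in Matrigel mesenchymal cells, 0.212 CPM, have an interval of 0.0579 to 0.544 CPM that lies above the macrophage value and overlaps its interval of 0.0013 to 0.287 CPM. Wwp2 stood at 53.8 CPM in antibody, 74.5 CPM in IgG and 64.8 CPM in Matrigel macrophages, above the 24.9 CPM of Matrigel mesenchymal cells, and at 49.95, 82.9 and 93.9 CPM in T and NK cells. Over the named immune classes it ran between 42.3 CPM in IgG dendritic cells and 247 CPM in IgG neutrophils, that value from 15 UMIs.

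**Figure D5:**
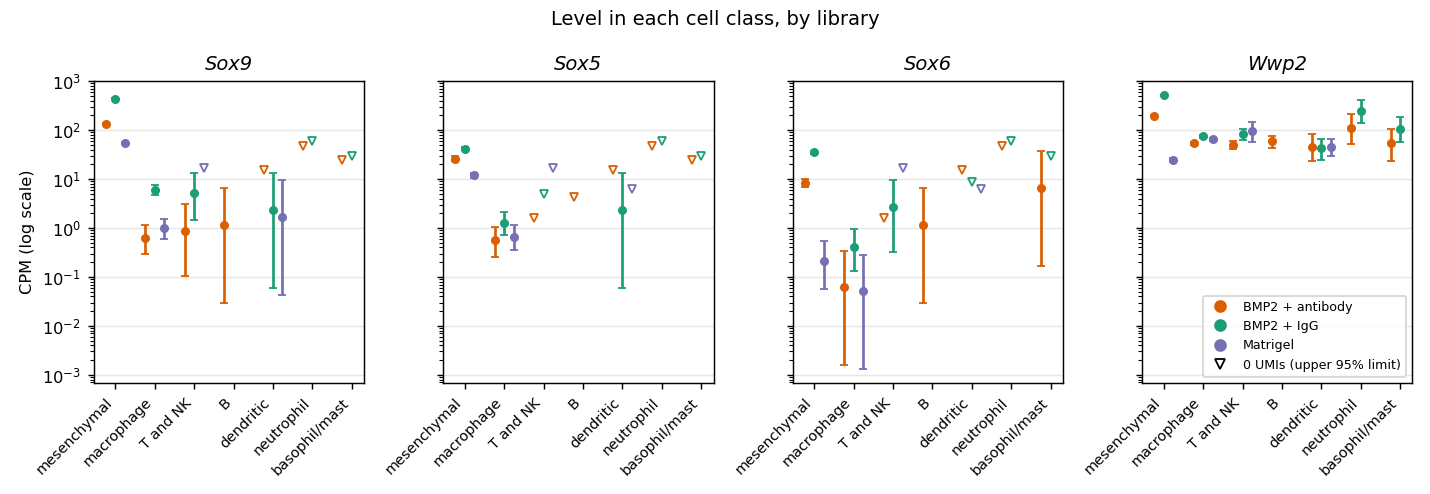
Level of each gene in CPM (log scale) in mesenchymal cells and each named immune class, by library, with exact Poisson 95% intervals; open triangles are upper limits for 0 UMIs, and classes under 20 cells are left out. Sox9 is at 54.5 to 439.7 CPM in mesenchymal cells and at 0.620 to 6.02 CPM in macrophages, while Wwp2 is at 53.8 to 74.5 CPM in macrophages.

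Genes whose level ran closest to each of the 4 were ranked by Pearson correlation of log2(CPM + 1) over 11 classes of mesenchymal cells (library by marker class) among 8119 genes. These points share libraries and depth, so the values describe likeness only. For Sox9 they were Tmed9 (0.992), C1qtnf3 (0.983), Hnrnpm (0.977), Nkd2 (0.976) and Aldh18a1 (0.974). For Sox6 they were Fzd9 (0.993), Tmie (0.982), Col9a2 (0.976), Hapln1 (0.976) and Susd5 (0.975), of which Col9a2 and Hapln1 are cartilage matrix genes. For Wwp2 they were Plxnb1 (0.992), Bambi (0.992), Rps25 (0.989), Park7 (0.986) and Emilin1 (0.983), and for Sox5 Gmds (0.972), Smim4 (0.951), Ccdc107 (0.948), Lig3 (0.945) and Pet100 (0.944). Among the 4, Sox6 and Wwp2 ran at 0.935, Sox9 and Wwp2 at 0.930, Sox9 and Sox6 at 0.854, Sox5 and Sox6 at 0.810, Sox5 and Wwp2 at 0.753 and Sox9 and Sox5 at 0.596.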

How the data were processed

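Single-cell libraries of 3 groups, 1 library each, were, per the labels' protocols, made with the Chromium 3' v3 kit. Cell Ranger 3.0.2 and mm10 are named, per the submitters' processing notes; no label or header gives the annotation. The deposited values were whole-number UMI counts per gene and cell, per the file headers. Cells were kept with at least 300 genes and 500 UMIs and at most 15% mitochondrial UMIs, which removed 146 antibody, 107 IgG and 26 Matrigel barcodes. Scrublet (scanpy 1.11.5) marked 4, 3 and 2 cells automatically, so the 285, 284 and 681 cells with the highest scores were removed, at 0.8% per 1000 cells. Total UMIs were 38163880 in antibody, 46317250 in IgG and 44252421 in Matrigel. Classes other than mesenchymal were 29 Leiden clusters (resolution 1) of all libraries together, named by markers; 3 clusters stayed unnamed. CPM was computed from summed counts, with exact Poisson (levels), exact conditional binomial (ratios) and Clopper-Pearson (shares) 95% intervals in scipy 1.17.1. Of these, only the ratio intervals were tested on simulated counts. Genes with at least 10 UMIs on either side of a comparison entered the background, and a ratio of 1.5 was the threshold. Named genes were the 4, the 5 nearest each, and the 2 highest and 2 lowest of each list, with others chosen for a result. Members and lists were chosen with earlier results of these data known.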

Additional observations from a re-analysis of the deposited data

How the results depend on the processing

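No paired analysis was possible because each group is 1 library, and for the same reason no replicate could be left out. The number of the 4 genes past 1.5 stayed within 1.5 times its main value in all 42 alternatives run, with Sox5 short of 1.5 between antibody and IgG in 2 of 11 and in the Col2a1 split of antibody cells as a mean of per-cell CPM (0.44). Of 167 single-gene ratios, 136 stayed inside the counting interval, 30 moved outside it and 1 turned: Sox5 in Col2a1-detected over other antibody cells, at -2.49 with the 10 cells with most UMIs left out (fewer cells by construction). The Sox9 log2 ratio of IgG over Matrigel was 2.46 in cells without a Col2a1 UMI (main value 3.01). That of antibody over IgG was -1.60 with a collagen threshold of 2%, -1.81 as a mean of per-cell CPM, -1.89 with the 10 cells with most UMIs left out and -1.54 without Col2a1 cells (main value -1.69); the causes were not tested. Drawing 3000 UMIs raised the shares of cells, by construction, to 24.03%, 54.6% and 12.0% for Sox9 in antibody, IgG and Matrigel, 6.84%, 10.3% and 3.74% for Sox5, 28.1%, 57.8% and 6.52% for Wwp2, and 8.12% for Sox6 in IgG. Over all genes, counting those with at least 1 UMI gave 4287 higher and 4893 lower in IgG than Matrigel, and 3338 higher and 3848 lower in antibody than IgG. A ratio of 2 gave 1347 and 1891, and 694 and 856. With 10 cells left out, Sox6 in IgG over Matrigel gave no value, since Matrigel was left with 0 UMIs. Depth limits Sox5 and Sox6 most, at 4 to 1125 UMIs a library.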

Other observations

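Sox9 was also found in cells under the collagen threshold. An unnamed cluster of 61 antibody, 100 IgG and 31 Matrigel cells, on both sides of the threshold, had Acta2, Tpm2 and Sox9 among its leading genes. Under the threshold it held 30 antibody cells with 269 CPM of Sox9 (86 UMIs, interval 215 to 332). The 58 IgG cells under it had 216.5 CPM (81 UMIs, 172 to 269). In these cells Acta2 stood at 34.4 CPM in antibody and 243 CPM in IgG. Krt8 stood at 741 and 321 CPM, and Krt18 at 960 and 315 CPM. Wwp2 stood at 31.3 CPM in these antibody cells and 88.2 CPM in these IgG cells. Sox5 and Sox6 were at 0 UMIs in the antibody cells, against 2 and 6 UMIs in the IgG cells, and Col2a1 was at 0 UMIs in antibody and 53.5 CPM in IgG. Markers of several cell types were present in these cells. Skeletal muscle markers summed to 3142 CPM in antibody and 911.5 CPM in IgG, endothelial markers to 772 and 2368 CPM, keratinocyte markers to 919 and 1895 CPM, mesenchymal markers to 863 and 1732 CPM and mural markers to 822 and 551 CPM. Epcam had 240 UMIs in antibody and 77 in IgG, whereas Krt14, Krt5 and Krt15 had 0, 2 and 1 UMIs in antibody and 165, 228 and 203 in IgG. The cluster was defined with these cells among others, so their Sox9 level is a description.

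Sox6 in the Matrigel library had more UMIs in a small cluster than in all mesenchymal cells. A cluster with Adipoq, Plin1 and Cidec, genes of fat cells, held 21 Matrigel cells with 13 Sox6 UMIs in 9 cells, 29.3 CPM (interval 15.6 to 50.02). The 1982 Matrigel mesenchymal cells had 4 UMIs of it. Sox9 stood at 13.5 CPM and Wwp2 at 33.8 CPM in the same 21 cells, of which 3 passed the collagen threshold.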
